A study of Mus musculus with 12 samples.

Results

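Ccl2, Ccl7, Ccl8, Ccl11 and Ccl12 encode 5 secreted chemokines of the CC family, and Ccr2 encodes a receptor through which such chemokines draw monocytes out of the blood. These 6 genes were taken by their symbols from 2 mouse RNA count tables, one of retina and one of cells labelled brain microvascular pericytes. They were 6 of the 32285 genes listed in the retina table and 6 of the 55401 listed in the pericyte table. The measurements were bulk RNA-seq read counts from 12 libraries of mice labelled wild type, in 4 groups of 3.

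In the retina table, both groups had the injury that the labels write as ONC, the usual short form of optic nerve crush, and were sampled at day 1. One group was labelled ONC+i.o.MSC.sEV, that is, injury with small extracellular vesicles from mesenchymal stem cells, called vesicles here. The other was labelled ONC+PBS, injury with phosphate-buffered saline. In the pericyte table the cells were treated with MSC.sEV or with PBS for 12 hours. The series title concerns retinal monocytes and macrophages and protection of the injured optic nerve. The labels give no age or sex of the mice, do not spell out i.o., and leave unsaid whether each library is a separate animal or culture. P-values therefore measure the spread between these libraries, which may be technical.

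Retina columns carry short names that match no sample description, and they were assigned to vesicles or PBS by inference from those names. The direction of every retina difference rests on that reading, and should the control columns hold retina without injury, each difference would contain the injury too. Retina libraries held 15580024 to 16842926 counts each, and pericyte-labelled libraries 33001248 to 37954077. Retina libraries carried Nrl, a transcription factor of rods, at 1408 ± 172 CPM with vesicles and 2227 ± 31.3 CPM with PBS (SD, n = 3 each). CPM are counts divided by the scaled library total and brought to a common sum. Lens genes, which mark another tissue of the eye, took 1.88%, 7.16% and 0.0118% of counts in vesicle libraries 1 to 3 and 0.698%, 0.0736% and 0.0644% in PBS libraries 1 to 3. Pericyte-labelled cells held Pdgfrb, a growth factor receptor of pericytes and fibroblasts, at 70.8 ± 4.89 CPM with vesicles and 59.7 ± 3.48 CPM with PBS. Rgs5, a defining pericyte marker, was at only 0.891 ± 0.429 CPM with vesicles and 0.283 ± 0.199 CPM with PBS. Olig1, a transcription factor of the oligodendrocyte lineage, was at 150 ± 15.4 CPM with vesicles and 208 ± 2.69 CPM with PBS, so these markers do not single out pericytes.

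Chemokines of this family are small proteins that bind to sugar chains on vessel walls and form a gradient. Leukocytes with the matching G protein-coupled receptor stop, leave the vessel and move along it. Ccl2 is the best known ligand of Ccr2, and in mice that lack Ccr2 fewer inflammatory monocytes leave the bone marrow. Ccl7 also binds Ccr2, along with other CC receptors. Ccl12 is a further Ccr2 ligand of the mouse. Ccl11, or eotaxin, acts mainly through Ccr3 and attracts eosinophils, and mouse Ccl8 is known as a ligand of Ccr8. In injured nervous tissue, glia, vessel cells and infiltrating leukocytes can all make such ligands, whereas Ccr2 is chiefly a gene of inflammatory monocytes.

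RefSeq promoter windows (GRCm38.p6, plus strand, 250 bases before to 50 after the start) were held for Ccl12, Ccl8 and Ccr2, and not analysed here for Ccl2, Ccl7 and Ccl11. They are shown because Ccl12 and Ccl8, which are neighbours, hold the same element within a base of the same place. The windows are chr11:82101595-82101894 for Ccl12, chr11:82114935-82115234 for Ccl8 and chr9:124101933-124102232 for Ccr2. Capitals mark a TATA box (TATAAA) in both ligand genes and an ISRE-type match in Ccr2, where ISRE is the interferon-stimulated response element.
Ccl12: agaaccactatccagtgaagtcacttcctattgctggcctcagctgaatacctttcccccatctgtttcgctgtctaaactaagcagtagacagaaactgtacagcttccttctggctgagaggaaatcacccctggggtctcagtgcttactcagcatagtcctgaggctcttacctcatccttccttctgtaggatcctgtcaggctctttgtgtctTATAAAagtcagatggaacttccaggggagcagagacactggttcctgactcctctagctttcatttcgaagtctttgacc
Ccl8: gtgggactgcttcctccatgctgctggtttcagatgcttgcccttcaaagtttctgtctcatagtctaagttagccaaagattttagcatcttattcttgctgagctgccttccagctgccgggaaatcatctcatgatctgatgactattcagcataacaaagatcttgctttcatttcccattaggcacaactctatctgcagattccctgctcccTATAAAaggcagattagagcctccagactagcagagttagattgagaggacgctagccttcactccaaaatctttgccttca
Ccr2: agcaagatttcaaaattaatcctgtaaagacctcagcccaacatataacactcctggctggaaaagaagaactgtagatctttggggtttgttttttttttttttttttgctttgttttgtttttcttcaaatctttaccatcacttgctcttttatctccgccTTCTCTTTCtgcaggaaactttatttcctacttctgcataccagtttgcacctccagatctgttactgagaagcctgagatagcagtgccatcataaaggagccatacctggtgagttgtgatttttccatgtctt
The TATA box spans bases -31 to -26 from the start in Ccl12 and -32 to -27 in Ccl8, and the match in Ccr2 spans -86 to -78 and reads on the opposite strand. In all, 7 motifs were searched on both strands. Of 32851 promoter windows of the same length, 13.6% held the TATA box and 8.56% held the ISRE form, spelled GAAANNGAA. None of the other 5 motifs was found in the 3 windows. Their shares among all windows were 8.46% for the NF-kB consensus, 7.81% for AP-1, spelled TGANTCA, and 10.8% for C/EBP, spelled TTGCNNAA. They were 8.30% for the interferon-gamma element GAS, spelled TTCNNNGAA, and 35.7% for the GC box, spelled GGGCGG. A match describes the letters only.

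In the retina, 5 of the 6 genes rose with vesicles: Ccl2, Ccl7, Ccl11, Ccl12 and Ccr2 (edgeR quasi-likelihood test, Benjamini-Hochberg adjusted p under 0.05, 2-sided). Of the 15440 retina genes tested, 10.7% were called higher and 5.19% lower. In the same 5 genes every vesicle library lay above every PBS library, as in 19.5% of all tested genes. Without vesicle library 1, vesicle library 2 or PBS library 2, the genes called higher numbered 1048, 1085 and 1051 instead of 1648, and these 5 stayed called in each of those fits. The tissue was measured whole, so more cells of a type and more RNA per cell cannot be told apart.

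Ccl2 (ENSMUSG00000035385), the leading Ccr2 ligand, had 1419, 2428 and 1230 counts in vesicle libraries 1 to 3, against 53, 25 and 37 in PBS libraries 1 to 3. The groups lay far apart, and vesicle library 2 was the highest. Its level averaged 107 ± 41.2 CPM with vesicles and 2.40 ± 0.981 CPM with PBS (SD, n = 3 each), a log2 fold change of 5.48 ± 0.43 (SE, vesicles minus PBS, edgeR adjusted p = 0.0011). This is a 44.5-fold difference, and 44 of the tested genes rose by more. A gene model on the opposite strand, Gm17268, overlaps Ccl2 in the GENCODE M21 annotation and had 0 counts in all 12 libraries.

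Ccl7 (ENSMUSG00000035373), the next gene on the chromosome, had 384, 501 and 433 counts with vesicles and 47, 9 and 23 with PBS. The vesicle libraries differed little among themselves and the PBS libraries by several-fold. Its log2 fold change was 4.06 ± 0.49 (edgeR adjusted p = 0.0033), with 27.6 ± 3.68 CPM with vesicles and 1.66 ± 1.28 CPM with PBS.

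Ccl12 (ENSMUSG00000035352), the mouse Ccr2 ligand with the TATA box shown above, had 841, 843 and 830 counts with vesicles and 138, 38 and 62 with PBS. The 3 vesicle libraries were almost equal, and PBS library 1 held the most of its group. The log2 fold change was 3.40 ± 0.48 (edgeR adjusted p = 0.0084), the smallest among the 5 genes called. PBS library 1 was the highest PBS library for Ccl2, Ccl7, Ccl8, Ccl12, Ccr2 and the leukocyte gene Ptprc, and it was also the PBS library with the most lens counts. Without it and vesicle library 2, the lens-richest library of each group, all 5 genes were still called and Ccl12 had a log2 fold change of 4.13.

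Ccl11 (ENSMUSG00000020676), the eosinophil chemokine, had 25, 27 and 31 counts with vesicles and 1 in each PBS library. The groups were clearly apart although the counts were few. Its summed counts of 83 with vesicles and 3 with PBS gave a depth-corrected ratio of 28.1 (95% exact interval 9.28 to 139, counting error only), with edgeR adjusted p = 0.00048. Ccr3, its usual receptor, had 2, 4 and 0 counts with vesicles and 2, 0 and 3 with PBS and was too sparse to be tested. The list of 8 eosinophil and mast cell markers summed to 2.22 to 4.90 CPM with vesicles and 2.19 to 4.98 CPM with PBS, with 0 of the 2 tested genes called and Prg2 at 0.

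Ccl8 (ENSMUSG00000009185), the gene at the far end of the cluster and a Ccr8 ligand in mice, had 31, 19 and 7 counts with vesicles and 19, 0 and 7 with PBS. The groups overlapped, and the difference did not pass the test (log2 fold change 1.13 ± 0.97, edgeR adjusted p = 0.48). The estimate lay between 0.54 and 2.46 over the 12 alternative fits that tested Ccl8. It was not tested without the lens-richest library of each group. With so few counts and this SE, the size of any rise is poorly known. Ccr8 was at 0 in all retina libraries.

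Ccr2 (ENSMUSG00000049103), the receptor, had 733, 595 and 509 counts with vesicles and 73, 22 and 39 with PBS. The groups did not overlap. The level was 38.5 ± 7.67 CPM with vesicles and 2.81 ± 1.76 CPM with PBS, a log2 fold change of 3.78 ± 0.43 (edgeR adjusted p = 0.0026). Of the 50-base stretches of Ccr2 transcripts in GENCODE M21, 129 of 6758 (1.91%) also occur in transcripts of other genes, and none of those of the 5 ligands do. The longest identical stretch between any pair of these ligands was 23 bases, between Ccl2 and Ccl7.

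**Figure D1:**
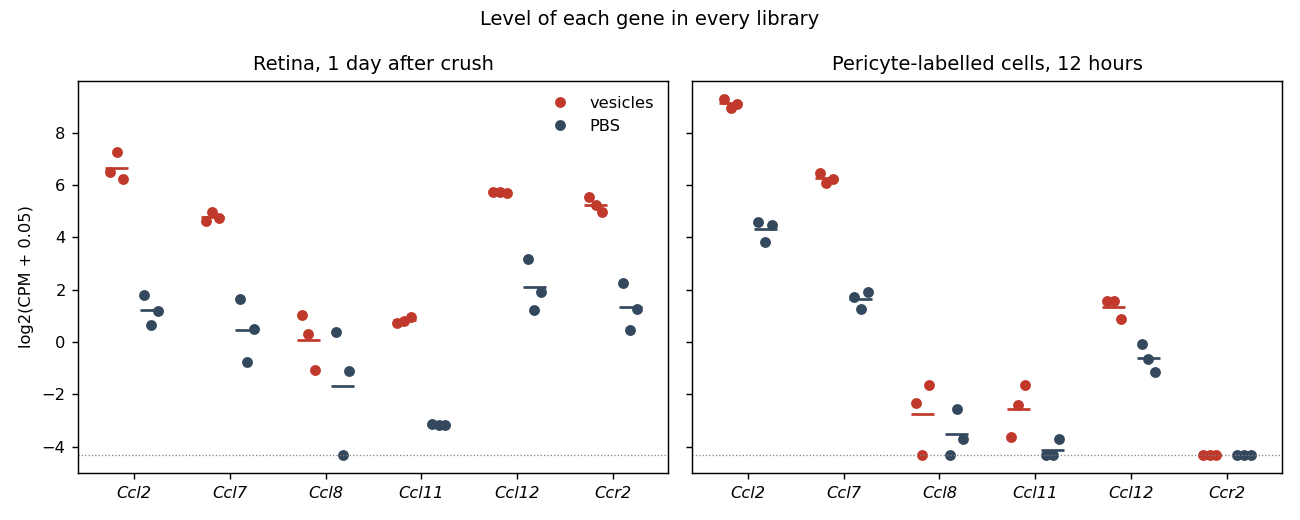
Level of each of the 6 genes as log2(CPM + 0.05), 1 point per library with a line at the group mean, vesicles left of PBS, for the retina and the pericyte-labelled cells, with a dotted line at 0 counts. In the retina the vesicle and PBS points lie apart for every gene except Ccl8, and in the pericyte-labelled cells Ccl2, Ccl7 and Ccl12 lie apart while Ccr2 is at 0. Ccl11 points there are barely apart, at 0.0298 CPM in the lowest vesicle library and 0.0270 CPM in the highest PBS library.

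Ccr2 was set beside Ptprc and monocyte marker genes in the same libraries. Ptprc, the pan-leukocyte antigen CD45, had 565, 577 and 398 counts with vesicles and 49, 33 and 41 with PBS (log2 fold change 3.66 ± 0.23, edgeR adjusted p = 4.0e-05). Per 100 Ptprc counts, Ccr2 had 130, 103 and 128 counts in vesicle libraries 1 to 3 and 149, 66.7 and 95.1 in PBS libraries 1 to 3. The groups overlapped in this ratio, which averaged 120 ± 14.9 with vesicles and 104 ± 41.8 with PBS (exact permutation test, 2-sided p = 0.6, n = 3 each, smallest possible p 0.1). Leaving out 1 library moved the difference between -1.80 and 39.4. Per 100 counts of 12 monocyte marker genes, Ccr2 had 4.09 ± 0.562 counts with vesicles and 3.44 ± 1.82 with PBS, again overlapping (exact permutation p = 0.7, n = 3 each). That list holds genes that other cells also express, Fn1 among them, so this is not a ratio per monocyte.

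In sum, the 12 monocyte markers ran from 702 to 1090 CPM with vesicles and from 55.0 to 99.0 CPM with PBS, and 11 of them were called higher, or 5 without the lens-richest library of each group (vesicle library 2 and PBS library 1). Ly6c2, the antigen of inflammatory monocytes, had 368, 207 and 163 counts with vesicles and 59, 8 and 44 with PBS (log2 fold change 2.74 ± 0.68, edgeR adjusted p = 0.048). Its call was lost on leaving out any library but PBS library 2 (adjusted p from 0.061 to 0.13). Neutrophil markers rose in 7 of 7 tested genes, or 4 without the same lens-richest pair, and their sum lay between 349 and 774 CPM with vesicles and between 4.31 and 16.4 CPM with PBS. Macrophage markers were called higher in 5 of 9 tested genes and ran from 155 to 189 CPM with vesicles and from 97.3 to 110 CPM with PBS. Homeostatic microglia markers, another possible source of chemokine mRNA, summed to 47.8 to 50.5 CPM with vesicles and 68.5 to 72.0 CPM with PBS. Of these 7 genes, 1 was called higher (Fcrls) and 3 lower. Fcrls lost its call without vesicle library 1, PBS library 2 or the lens-richest pair (edgeR adjusted p = 0.062, 0.070 and 0.074). Rod markers, which mark the bulk of retinal cells, were lower in 6 of 7. T and NK cell markers came to at most 6.43 CPM with vesicles and 1.62 CPM with PBS, and none passed the filter on low counts. With no such filter Cd3d, Cd3g and Nkg7 were called higher (edgeR adjusted p = 0.0086, 0.042 and 0.0026), as were Cd3d and Nkg7 without vesicle library 3 and Nkg7 without PBS library 1 or 3. The part of these cell types in the chemokine and Ccr2 changes was not tested.

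In the pericyte-labelled cells, 3 of the 6 genes had enough counts to be tested, and all 3, Ccl2, Ccl7 and Ccl12, rose with vesicles. Of the 16975 genes tested there, 10.9% were called higher (1855) and 8.90% lower (1510). With library totals in place of the scaled ones, 1512 were called higher and 2049 lower, and these 3 chemokine genes still rose. Every vesicle library lay above every PBS library in all 3, as in 17.4% of tested genes.

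Ccl2 had 21080, 18241 and 20419 counts with vesicles and 930, 481 and 821 with PBS. The groups were far apart, and the vesicle libraries differed little among themselves. The level was 559 ± 65.3 CPM with vesicles and 20.2 ± 5.20 CPM with PBS (SD, n = 3 each), a log2 fold change of 4.79 ± 0.24 (27.6-fold, edgeR adjusted p = 0.00014). Only 40 of the tested genes rose by more.

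Ccl7 had 2974, 2489 and 2825 counts with vesicles and 124, 80 and 138 with PBS. Its log2 fold change of 4.63 ± 0.13 (24.8-fold, edgeR adjusted p = 7.8e-17) had a smaller error than that of Ccl2. The vesicle libraries averaged 77.6 ± 10.4 CPM and the PBS libraries 3.10 ± 0.681 CPM.

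Ccl12 had 98, 106 and 67 counts with vesicles and 35, 20 and 15 with PBS. The groups did not overlap, and the log2 fold change was 1.99 ± 0.35 (3.97-fold, edgeR adjusted p = 0.00026).

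Ccl8 had 5, 0 and 10 counts with vesicles and 0, 4 and 1 with PBS, and Ccl11 had 1, 5 and 10 with vesicles and 0, 0 and 1 with PBS. Both fell under the filter on low counts. With no such filter neither was called (edgeR adjusted p = 0.61 for Ccl8 and 0.25 for Ccl11). The summed Ccl11 counts of 16 with vesicles and 1 with PBS give a ratio of 16.3 with a 95% exact interval from 2.53 to 684, counting error only. Ccr2 had 0 counts in all 6 libraries, and a count of 0 allows a level of up to 0.0778 to 0.0894 CPM per library (3 counts).

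Ptprc, Ly6c2 and neutrophil genes were low in these libraries. Ptprc had 41, 39 and 41 counts with vesicles and 2, 13 and 12 with PBS, 1.13 ± 0.0813 CPM against 0.254 ± 0.178 CPM (log2 fold change 2.16 ± 0.56, edgeR adjusted p = 0.0085). Ly6c2 had 2, 0 and 0 counts with vesicles and 2, 1 and 0 with PBS, and the 8 neutrophil markers summed to at most 0.484 CPM with vesicles and 0.285 CPM with PBS. The monocyte list ran from 1323 to 1579 CPM with vesicles and from 1356 to 1474 CPM with PBS, with 0 of 4 tested genes called. Lyz2 was called higher without vesicle library 3, with no low-count filter or with library numbers as blocks (log2 fold changes 0.50, 0.36 and 0.35). Fn1 was called higher without vesicle library 1 (log2 fold change 0.13). Fn1, which many adherent cells express, made up most of the monocyte list's sum. The microglia list summed to 174 to 190 CPM with vesicles and 185 to 197 CPM with PBS. Siglech, a gene of that list, was at 0 in all these libraries, so the sum alone does not show microglia. Of the list's 6 tested genes 0 were called with all libraries and up to 2 lower in alternative fits. The macrophage list summed to 21.4 to 26.3 CPM with vesicles and 21.8 to 23.9 CPM with PBS. Of its 8 tested genes 1 was called higher (Adgre1), with 0 to 2 higher and 0 to 2 lower in alternative fits. Which cells made the chemokine mRNAs was not tested.

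**Figure D2:**
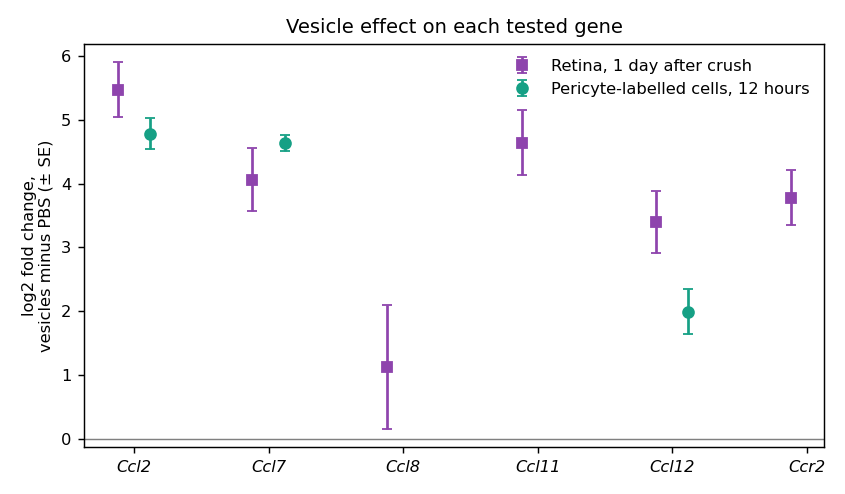
Log2 fold change (vesicles minus PBS) ± SE of each tested gene, with squares for the retina and circles for the pericyte-labelled cells. Ccl2 and Ccl7 lie between 4.06 and 5.48 in both, Ccl12 is at 3.40 in the retina and 1.99 in the pericyte-labelled cells, and Ccl8 is the 1 gene in the retina that was not called.

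Vesicle effects were compared between the 2 settings in 1 joint model over the 13712 genes tested in both tables, where 12.1% of genes differed in either direction. The model was limma with a weight for each table, shared by all libraries of that table. The settings differ in tissue, time and table, which cannot be told apart. For Ccl12, the joint log2 fold change was 3.64 in the retina and 2.00 in the pericyte-labelled cells, a difference of 1.64 ± 0.51 (limma adjusted p = 0.047). That call was narrow and was lost in 9 of 13 alternative fits, with adjusted p up to 0.18. For Ccl2 the difference was 0.67 ± 0.90 (limma adjusted p = 0.71) and for Ccl7 it was -0.29 ± 0.55 (limma adjusted p = 0.80), so no difference was detectable for either.

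The mix of ligands was read from shares of their summed counts, which are not corrected for length. The 5 ligands together had 2700, 3818 and 2531 counts in retina vesicle libraries, against 258, 73 and 130 in retina PBS libraries. Ccl2 made up 52.6%, 63.6% and 48.6% of those counts with vesicles and 20.5%, 34.2% and 28.5% with PBS. Ccl12 made up 31.1%, 22.1% and 32.8% with vesicles and 53.5%, 52.1% and 47.7% with PBS. With PBS, Ccl12 was thus the most counted ligand in every retina library, and with vesicles Ccl2 was. Both shares separated the groups, and each reached the smallest p the design allows (exact permutation p = 0.1, 0.25 adjusted over 10 shares). The Ccl7 share was 14.8% ± 2.06 with vesicles and 16.1% ± 3.26 with PBS (exact permutation p = 0.7, n = 3 each).

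Set against each other, Ccl12 had 59.3, 34.7 and 67.5 counts per 100 Ccl2 counts in retina vesicle libraries, and 260, 152 and 168 in retina PBS libraries. Ccl7 had 27.1, 20.6 and 35.2 per 100 Ccl2 counts with vesicles and 88.7, 36.0 and 62.2 with PBS. Ligand and receptor can be set side by side in the same way. Ccl2 had 194, 408 and 242 counts per 100 Ccr2 counts with vesicles and 72.6, 114 and 94.9 with PBS, so the ligand's counts stood higher against the receptor's in every vesicle library.

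The 5 ligands had 24158, 20841 and 23331 counts in pericyte-labelled cells with vesicles and 1089, 585 and 976 with PBS. Ccl2 dominated in both groups, at 87.4% ± 0.152 of these counts with vesicles and 83.9% ± 1.60 with PBS (exact permutation p = 0.1, n = 3 each). Ccl12 took 0.400% ± 0.111 with vesicles and 2.72% ± 1.03 with PBS (exact permutation p = 0.1, n = 3 each). The Ccl7 share was 12.1% ± 0.184 with vesicles and 13.1% ± 1.47 with PBS (exact permutation p = 0.4, n = 3 each). Per 100 Ccl2 counts, Ccl7 had 14.1, 13.6 and 13.8 with vesicles and 13.3, 16.6 and 16.8 with PBS, which overlapped.

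**Figure D3:**
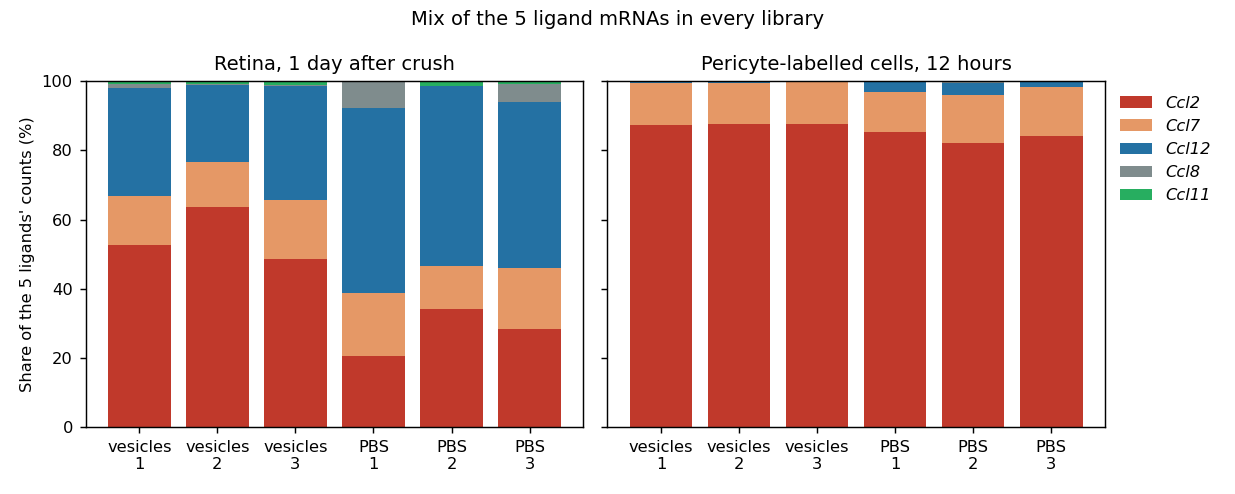
Share of each ligand in the summed counts of the 5 ligands, as stacked bars per library from 0 to 100%, with vesicle libraries left of PBS libraries. In the retina, Ccl2 is the largest segment with vesicles (48.6% or more) and Ccl12 with PBS (47.7% or more), while Ccl2 is at 82.2% or more in all pericyte-labelled libraries.

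Since the genes differ in length, levels of different genes were compared per kilobase of exon. In retina vesicle libraries, Ccl12 at 98.0 ± 2.37 CPM per kb and Ccl2 at 93.6 ± 36.2 were not separated. Below them, without overlap, came Ccl7 at 34.4 ± 4.60 and Ccr2 at 5.70 ± 1.14, and then Ccl8 at 2.35 ± 1.51 and Ccl11 at 1.60 ± 0.150, which overlapped. In retina PBS libraries Ccl12 at 9.33 ± 6.57 CPM per kb led without overlap. Ccl2 at 2.11 ± 0.862, Ccl7 at 2.08 ± 1.60, Ccl8 at 1.08 ± 1.23 and Ccr2 at 0.416 ± 0.260 each overlapped the next, and Ccl11 at 0.0573 ± 0.00260 had the lowest mean. In pericyte-labelled cells with vesicles the order was Ccl2 at 491 ± 57.4, Ccl7 at 96.8 (its highest library at 111) and Ccl12 at 4.73 ± 1.19 CPM per kb. With PBS the order was Ccl2 at 17.7 ± 4.57, Ccl7 at 3.88 ± 0.850 and Ccl12 at 1.18 ± 0.472 CPM per kb, and no neighbours among these 3 overlapped in either group.

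The 5 ligand genes lie next to each other on mouse chromosome 11 in the order Ccl2, Ccl7, Ccl11, Ccl12, Ccl8, followed by Ccl1. In the retina, none of the 3 tested flanking genes was called with all libraries. Tmem98 had 1391, 2721 and 1911 counts with vesicles and 285, 424 and 1370 with PBS (log2 fold change 1.58 ± 0.70, edgeR adjusted p = 0.22), and was called higher without PBS library 3 (log2 fold change 2.50, adjusted p = 0.012). Asic2, an ion channel gene on the Ccl2 side of the cluster, was at a log2 fold change of -0.19 ± 0.23 (edgeR adjusted p = 0.63) and Tmem132e at 0.70 ± 0.39 (edgeR adjusted p = 0.26). Tmem132e had 38, 52 and 13 counts in pericyte-labelled cells with vesicles and 0 in every PBS library (edgeR adjusted p = 5.6e-05). The other 3 tested flanking genes, Tmem98, Asic2 and Cct6b, were not called there. Ccr2 lies on chromosome 9, next to Ccr3. In the retina Ccr1, another CC receptor gene that lies near Ccr3, was at 71.0 ± 20.5 CPM with vesicles and 2.17 ± 0.959 CPM with PBS (log2 fold change 5.03 ± 0.40, edgeR adjusted p = 0.00076).

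**Figure D4:**
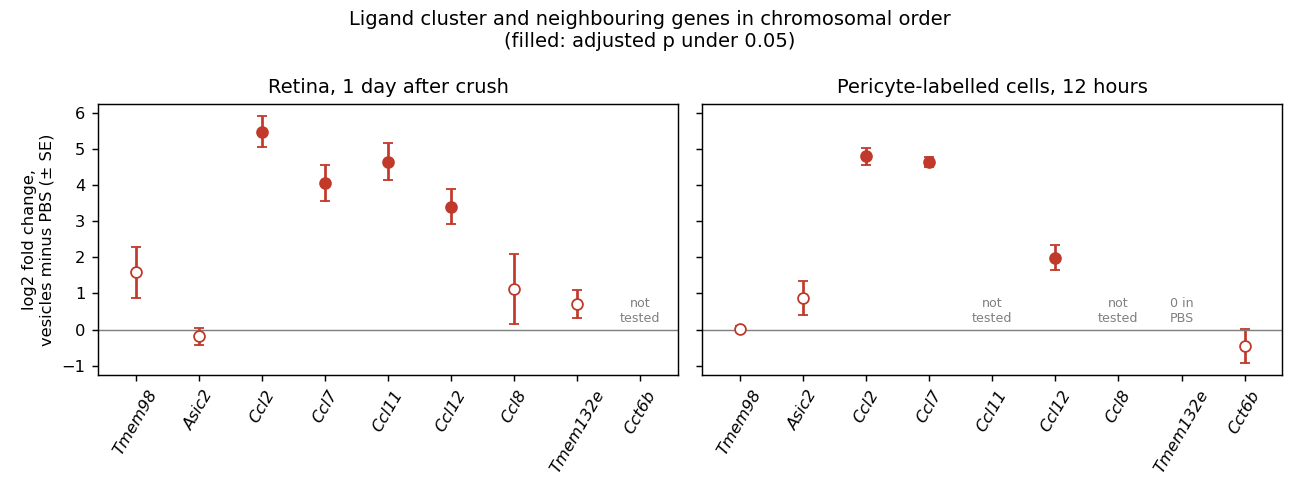
Log2 fold change (vesicles minus PBS) ± SE of the ligand genes and tested flanking genes in chromosomal order, filled where the adjusted p was under 0.05. In the retina the 4 filled points are Ccl2, Ccl7, Ccl11 and Ccl12, and in the pericyte-labelled cells Ccl2, Ccl7 and Ccl12 are filled, while Tmem132e had no PBS counts and has no fold there.

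Other genes of the pathway were counted in lists. The median log2 fold change of all genes tested was -0.02 in the retina and 0.00056 in the pericyte-labelled cells. Among the other CC chemokine ligands, 7 of 11 tested rose in the retina and 0 fell (median log2 fold change 2.20), and without vesicle library 1, 4 were called. Those with the smallest p were Ccl17, Ccl3 and Ccl4, of which Ccl17 attracts T cells and Ccl3 and Ccl4 attract several kinds of leukocyte. Ccl17 had 163, 269 and 146 counts with vesicles and 8, 6 and 4 with PBS, and the log2 fold change was 5.54 ± 0.42 for Ccl3 and 4.74 ± 0.42 for Ccl4. In the pericyte-labelled cells 7 of 10 rose and 0 fell (median 1.93), led by Ccl5 at 6.35 ± 0.27 and Ccl3 at 3.13 ± 0.23. Ccl20, which attracts cells with Ccr6, had 150, 95 and 94 counts with vesicles and 1, 0 and 0 with PBS there. Of the other CC receptors and decoys, 3 of 5 rose in the retina (Ccrl2 and Ccr1 among them) and 1 of 5 in the pericyte-labelled cells (Ccrl2, median log2 fold change of the list -0.09), with none lower. Ccrl2, which binds chemerin and does not signal as a usual chemokine receptor, was at 17.1 ± 5.63 CPM with vesicles and 0.621 ± 0.0894 CPM with PBS in the retina, and at 4.87 ± 0.373 CPM with vesicles and 0.904 ± 0.233 CPM with PBS in the pericyte-labelled cells.

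Cytokines known to induce Ccl2 in many cells were higher in both tables. In the retina 4 of 5 tested rose (median log2 fold change 4.64), namely Il1a at 4.65 ± 0.24, Il6 at 7.44 ± 0.70, Tnf at 3.83 ± 0.64 and Il1b at 6.21 ± 0.74. Without the lens-richest library of each group 2 of them were called, as Tnf (adjusted p = 0.086) and Il1b (0.12) were not. Il1b had 5018, 6700 and 4231 counts with vesicles and 81, 16 and 122 with PBS. In the pericyte-labelled cells 5 of 6 rose (median 5.31), namely Il1b at 6.57 ± 0.34, Il1a at 5.59 ± 0.39, Tnf at 2.71 ± 0.25, Il6 at 5.04 ± 0.56, and Csf2, which had 30, 14 and 14 counts with vesicles and 0 with PBS. Il1b had 440, 288 and 324 counts there with vesicles and 4, 1 and 6 with PBS. Receptors of such cytokines rose in 11 of 12 genes in the retina (median 1.76) and 12 of 12 in the pericyte-labelled cells (median 0.54). Alternative fits called 9 to 11 receptors higher in the retina and 10 to 12 in the pericyte-labelled cells. The smallest p in the retina belonged to Tnfrsf1b (3.71 ± 0.25), Il1r1 (1.90 ± 0.16) and Il4ra (2.65 ± 0.24), and in the pericyte-labelled cells to Ifngr1 (1.00 ± 0.06), Il4ra (0.95 ± 0.07) and Ifngr2 (0.93 ± 0.06), all as log2 fold changes.

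Transcription factors known to act at chemokine promoters rose in 13 of 16 genes in the retina (median log2 fold change 1.70) and in 14 of 17 in the pericyte-labelled cells (median 1.18), with none lower. Over the alternative fits 10 to 14 were called higher in the retina and 13 to 15 in the pericyte-labelled cells. In the retina Cebpb was at 3.46 ± 0.21, Nfkbiz at 1.67 ± 0.14 and Irf1 at 1.73 ± 0.17. Irf1 was at 2.20 ± 0.07 and Nfkbiz at 2.57 ± 0.08 in the pericyte-labelled cells. Nfkbiz encodes a nuclear partner of NF-kB, and Irf1 acts downstream of interferons. Factors that bind and destroy chemokine mRNAs rose in 3 of 6 genes in each table (medians 0.98 in the retina and 0.53 in the pericyte-labelled cells). Zc3h12a, an RNase that cuts inflammatory mRNAs, was at 2.81 ± 0.40 in the retina and 2.84 ± 0.10 in the pericyte-labelled cells. Zfp36l1 was at 1.70 ± 0.21 and Zfp36 at 1.96 ± 0.34 in the retina, with Zfp36 not called without the lens-richest pair (adjusted p = 0.053). Zfp36l2 was at 0.57 ± 0.06 and Zfp36l1 at 0.49 ± 0.07 in the pericyte-labelled cells.

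Proteases and binding proteins that cut, hold or present these ligands rose in 7 of 10 tested genes in the retina (median log2 fold change 1.52) and 5 of 8 in the pericyte-labelled cells (median 0.59). Alternative fits called 5 to 7 of this list higher in the retina. In the retina Tnfaip6, which binds matrix sugars and some chemokines, was at 2.48 ± 0.25. Mmp8, also a neutrophil gene, was at 4.53 ± 0.55 and Mmp9 at 1.56 ± 0.19. The 5 in the pericyte-labelled cells were Sdc4 at 1.00 ± 0.06, Mmp12 at 2.64 ± 0.38, Mmp9 at 1.82 ± 0.27, Mmp3 at 1.94 ± 0.34 and Sdc1 at 0.18 ± 0.06. Mmp3 lost its call on leaving out any library but PBS library 1, and Sdc1 any but vesicle library 3 (adjusted p from 0.056 to 0.15 over both), so that 3 were called without vesicle library 1 or 2 or PBS library 2 or 3. Genes that act in signalling below Ccr2 rose in 4 of 10 in the retina, namely Dock2 at 2.25 ± 0.31, Pik3cg at 2.13 ± 0.31, Rac2 at 3.87 ± 0.46 and Jak2 at 0.64 ± 0.12, and the first 3 are chiefly leukocyte genes. Among the pericyte-labelled cells' genes, Grk2 (0.52 ± 0.06), Jak2 (0.32 ± 0.06) and Rac2 (1.13 ± 0.33) rose and Rgs2, a brake on G protein signalling, fell (-0.43 ± 0.07), though Rac2 lost its call without vesicle library 2 (adjusted p = 0.088) or PBS library 2 (0.077). The list medians of log2 fold change were 0.53 in the retina and 0.05 in the pericyte-labelled cells.

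Over the 6 retina libraries, the named genes whose log2 CPM followed Ccl2 most closely were Saa3, Wwtr1, Nfkbiz, Mindy2 and Ctsc, with Pearson r from 0.9986 to 0.9990 among 13641 genes ranked. Since the libraries fall into 2 groups, these values mainly describe the gap between the groups and the level of vesicle library 2. Ccl11 ranked 183 (r = 0.985), Ccr2 ranked 207 (r = 0.983), Ccl7 ranked 249 (r = 0.981), Ccl12 ranked 324 (r = 0.978) and Ccl8 ranked 3894 (r = 0.607). In the pericyte-labelled cells, the genes most like Ccl2 were Nfkbiz (r = 0.9997), Cxcl1, Pde4b, Adm and Ccl7 (r = 0.9990), and Ccl12 ranked 1041 of 12944 (r = 0.932).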

How the data were processed

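RNA was measured in 12 mouse libraries. The deposited files give raw read counts by gene, which the authors made with FastQC 0.11.8, HISAT2 2.0.5 and featureCounts 1.5.0-p3, per the submitters' processing notes, which also list limma without a version. The genome build and strand setting are not given in the sources used here, so reads of genes that overlap on opposite strands cannot be told apart. Tables were fitted separately in R 4.3.3 with edgeR 4.0.16: filterByExpr with a minimum count of 10, TMM scaling, robust quasi-likelihood F test, Benjamini-Hochberg over all genes tested, called at adjusted p under 0.05. The SE of a log2 fold change is its size over the root of its F value. CPM use TMM-scaled totals, so 1 count came to 0.0600 to 0.0652 CPM in the retina. Likeness used log2 CPM with a prior count of 2. DESeq2 1.42.0 and limma 3.58.1 were alternatives, and limma gave the joint test. The fit was tested on simulated data. Lengths are exon unions of GENCODE M21. Intervals are 95% exact and cover counting error only.

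Libraries of a group differed by more than sampling noise (lowest chi-squared per degree of freedom 10.5 in the retina and 5.87 in the pericyte table), so no pair was counted as 1. The count of unused value columns was 0. Deviations of same-numbered libraries correlated weakly and with mixed sign, so numbers were not treated as pairs, though pairing is not excluded. The members and lists were chosen with earlier results of these data known. Of each pathway list, the text names up to 3 called genes with the smallest p, and all called in a direction where 5 or fewer were. It also names the 5 genes most like Ccl2 with at least 1 CPM in the higher group, Ptprc and defining markers. Flanking genes, Ccr3, Ccr8, Olig1, Fn1, Lyz2, Cd3d, Cd3g, Nkg7 and Prg2 fall outside that rule and were named after their values were seen. A few genes that the rule takes in are not reported here.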

Additional observations from a re-analysis of the deposited data

Results flagged for a closer look

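The vesicle effect on Ccl12 differed between the 2 settings in the joint limma test. It was 1.64 log2 units larger in the retina than in the pericyte-labelled cells (SE 0.51, limma adjusted p = 0.047), with every vesicle library above every PBS library in both. The difference kept its direction in all 13 alternative fits, but it was not called in 9 of them, where the adjusted p was above 0.05.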

How the results depend on the processing

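In the retina 5 of the 6 genes were called, and in the pericyte-labelled cells 3, under every alternative: other scaling, no low-count filter, DESeq2, limma voom, each library left out, and the lens-richest pair left out in the retina. Their adjusted p reached 0.040 in the retina (Ccl12) and 0.0029 in the pericyte-labelled cells. Log2 fold changes ran from 5.12 to 5.82 for Ccl2, 3.64 to 4.83 for Ccl7, 4.25 to 4.80 for Ccl11, 3.05 to 4.13 for Ccl12 and 3.44 to 4.41 for Ccr2 in the retina, and from 4.59 to 4.93 for Ccl2, 4.48 to 4.78 for Ccl7 and 1.75 to 2.34 for Ccl12 in the pericyte-labelled cells. Of all retina genes 2449 were called, 1328 to 2909 with 1 library left out (1401 without vesicle library 1, 1381 without vesicle library 2, 1328 without PBS library 2) and 1420 without the lens-richest pair; fewer libraries entered those fits. The difference in Ccl12 between settings was 1.63 without the table weights (limma adjusted p = 0.071) and 1.20 to 2.15 with 1 library left out. That call was lost without vesicle library 1 (limma adjusted p = 0.065) or 2 (0.069) or PBS library 2 (0.16) or 3 (0.096) of the retina, and without vesicle library 2 (0.053) or 3 (0.089) or PBS library 1 (0.18) or 2 (0.10) of the pericyte-labelled cells; the cause was not tested. With the replicate block, 1919 retina genes and 3287 pericyte genes were called, with the same number of called members (5 and 3). Deviations of same-numbered libraries from their group means correlated at 0.183, -0.186 and -0.0573 in the retina. In the pericyte-labelled cells they correlated at 0.0321, 0.0171 and -0.0219. These values did not show pairing by number, and with 3 libraries per group they cannot exclude it. Ccl8 and Ccl11 had too few counts in the pericyte-labelled cells to pass the filter.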
